A study of Mus musculus with 20 samples.

Results

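Myd88 and proteins that carry its signal, restrain it or run beside it were followed through 10 genes. These were the adaptors Myd88, Tirap, Ticam1 and Ticam2, the kinases and pseudokinase Irak1, Irak2, Irak3 and Irak4, the ubiquitin ligase Traf6, and Tollip. Every probe on the array whose gene name was 1 of these 10 was taken, which gave 21 of 41174 probes. Of these, 18 probes for 9 genes passed the filter on dim probes and were tested, and 3 did not. Each gene had between 1 and 3 probes, and Myd88, Irak2 and Ticam2 had 1 each.

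Expression was measured in whole trachea of C57/Bl6 mice with 20 one-colour arrays, 5 in each of 4 groups, and the labels give an age of 4 months throughout. WT-control and KO-control were uninjured wild-type and Myd88 KO mice, and WT-injury and KO-injury were the same genotypes 3 days after 2% polidocanol, a detergent that strips the airway surface, was put into the trachea. The KO line carried the Myd88 deletion in the germline and was bred by KO to KO crosses after back-crossing, beside a separate in-house wild-type colony, so genotype and colony cannot be told apart. Male and female mice were used in the study, and the sex of each sample is not reported here.

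Toll-like receptors and the interleukin-1 receptor family carry a cytoplasmic TIR domain that recruits Myd88, with Tirap as a bridging adaptor at some receptors. Myd88 gathers Irak4 and then Irak1 and Irak2 into the Myddosome, and these act through Traf6 to reach the kinases that switch on NF-κB. Ticam1 (TRIF) and Ticam2 (TRAM) form the route that does not need Myd88, while Irak3 (IRAK-M) and Tollip are known as brakes, and in the airway both epithelium and macrophages use these receptors.

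Values are log2 signal minus the array's own 75th percentile, so a value of 0 is that percentile and a difference of 1 is a doubling. The limma fit used all 20 arrays and 26063 probes, and a difference was called at a Benjamini-Hochberg adjusted p under 0.01. The 4 arrays of each replicate number shared a slide, and the slides of replicates 1 and 5 were scanned on a second day. Within each group the labels do not say more than that the samples were separate, and the study's methods describe 5 biological replicates per group. The p-values thus measure the spread between these samples. In homogenates of a whole organ, fewer cells of a type and less RNA per cell cannot be told apart.

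The KO-injury arrays were not alike in their response to injury. Scgb3a2, a club cell secretory protein, read 8.86 to 9.66 in WT-control and 2.59 to 4.16 in WT-injury, and in KO-injury replicates 1 to 5 it read 7.94, 3.07, 5.52, 3.20 and 9.08. Saa3, an acute-phase protein, read -6.81 to -3.11 in WT-control and 0.44 to 6.16 in WT-injury. In KO-injury replicates 1 to 5 it read -3.88, 0.23, -2.35, 0.21 and -6.28. KO-control read 8.59 to 9.42 at Scgb3a2 and -7.47 to -5.91 at Saa3. KO-injury replicate 5 thus read within the KO-control range for both genes, against its label. Replicate 1 lay outside both KO-control ranges, toward WT-injury, though within the WT-control range at Saa3. At Scgb1a1, also of club cells, replicates 1 and 5 read 4.79 and 7.56. KO-control read 7.65 to 8.25 there and WT-injury -1.16 to -0.09. Replicate 3 lay between the WT-control and WT-injury ranges at Scgb3a2 and Saa3. For Myd88, Tirap, Irak2, Irak3 and Irak4, the fitted differences printed that involve KO-injury are given with all arrays and without each of replicates 1 and 5. Not every comparison is printed for every probe. What the departure of these arrays contributed was not tested.

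The sequences of the array probes were not used here. The stretch of 250 bases before the annotated start is printed for Myd88 and for Irak3, the only members with a tested probe at which every WT-injury array lay above every WT-control array. The bases are from RefSeq on build GRCm38.p6, written 5′ to 3′ on the gene's strand, with capitals for each match to GGGNNNNNCC, a general form of the NF-κB site, on either strand. The first lies at chr9:119340019-119340268 and the second at chr10:120201598-120201847, both on the minus strand.
Myd88: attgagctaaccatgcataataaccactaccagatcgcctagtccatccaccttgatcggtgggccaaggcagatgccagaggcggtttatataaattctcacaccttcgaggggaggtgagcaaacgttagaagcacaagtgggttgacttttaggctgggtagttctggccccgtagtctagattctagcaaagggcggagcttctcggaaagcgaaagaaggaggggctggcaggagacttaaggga
Irak3: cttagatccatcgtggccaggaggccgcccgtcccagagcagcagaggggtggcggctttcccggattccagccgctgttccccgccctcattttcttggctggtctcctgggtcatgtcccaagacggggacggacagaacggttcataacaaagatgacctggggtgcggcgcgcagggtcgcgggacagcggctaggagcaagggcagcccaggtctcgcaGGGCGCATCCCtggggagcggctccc
The Myd88 window held no match, and the Irak3 window held 2 overlapping ones that begin 26 and 25 bases before the start. A second Irak3 start had none. A match was present in 9 of 12 windows of 9 member genes and in 45.8% of all 32851 windows of that length, and a match is a run of letters, not a bound site.

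The Myd88 probe is the check of the deleted gene. It lies at chr9:119016408-119016467 in the files' coordinates, whose build is not stated, and each array carried it on 10 spots. In WT-control replicates 1 to 5 it read 2.13, 1.95, 2.28, 1.94 and 2.08, and in KO-control it read 2.00, 1.82, 2.04, 1.86 and 1.60. The 2 uninjured groups overlapped, and the Myd88 signal was therefore not lost in the KO arrays. Where the probe lies relative to the deleted part is not given in the sources used here, and a probe outside that part checks nothing about the labels.

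After injury the 2 genotypes separated at this probe. WT-injury replicates 1 to 5 read 2.78, 2.67, 2.36, 2.65 and 2.80, and KO-injury read 1.54, 2.04, 2.09, 2.09 and 1.68. Every KO-injury array lay below every WT-injury array, and every WT-injury array lay above every WT-control array, while KO-injury and KO-control overlapped. By mean the order was WT-injury at 2.65 ± 0.18, WT-control at 2.08 ± 0.14, KO-injury at 1.89 ± 0.26 and KO-control at 1.86 ± 0.17 (SD, n = 5 each).

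**Figure D1:**
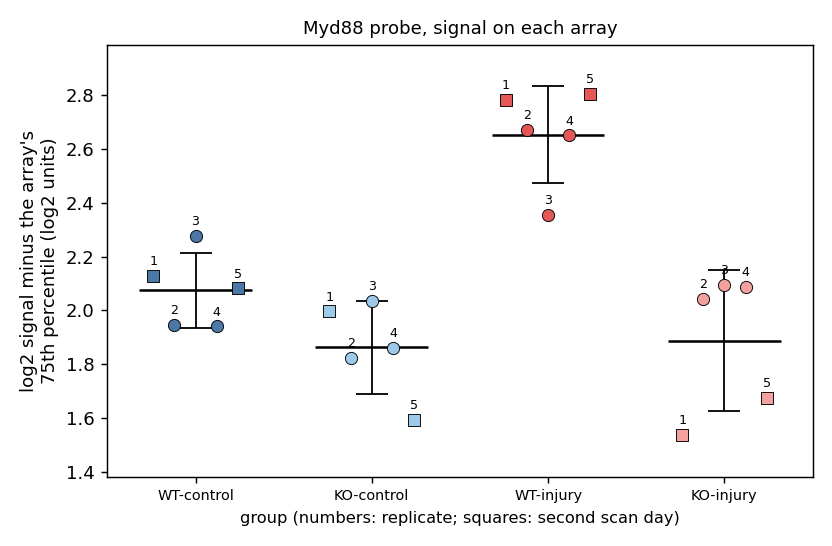
Signal of the Myd88 probe on each of the 20 arrays by group, as log2 signal minus the array's 75th percentile. Points are arrays with their replicate number, squares are arrays of the second scan day, and the bar and whiskers are the mean and SD of 5 arrays. The 5 WT-injury arrays sit between 2.36 and 2.80, above all others, and KO-injury replicates 1 and 5 are the lowest of their group.

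Myd88 was lower in KO-injury than in WT-injury by a log2 difference of -0.77 ± 0.14 (SE; 95% interval -1.06 to -0.47; adjusted p = 0.00824), or 0.588 times the wild-type signal. It was the only 1 of the 18 member probes called in this comparison, in which 0.380% of all tested probes were called. Groups that did not overlap were likewise found at 1 member probe, against 1.96% of all probes. The difference was negative on all 5 slides, from -1.24 to -0.26, and averaged -0.48 on the first scan day and -1.19 on the second.

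The call was close to the threshold. Without KO-injury replicate 5 the difference was -0.71 with an adjusted p of 0.0304, and without replicate 1 it was -0.68 with an adjusted p of 0.0237. It stood when WT-injury replicate 3 or KO-injury replicate 2 was left out, and was lost when any of the other 8 injured arrays was left out, with differences of -0.84 to -0.68 in all 10. With the slide as a block, the adjusted p was 0.0180.

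The change of Myd88 with injury did not pass the threshold in either genotype. In wild-type mice the difference was 0.58 ± 0.14 (SE; 95% interval 0.28 to 0.87; adjusted p = 0.0111), a ratio of 1.49, and it was positive on all 5 slides. It passed when WT-injury replicate 3 was left out, at 0.65 with an adjusted p of 0.00857. In KO mice the difference was 0.02 ± 0.14 (95% interval -0.27 to 0.32; adjusted p = 0.945), and it was 0.08 without KO-injury replicate 5 and 0.11 without replicate 1.

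The difference between these 2 responses was -0.55 ± 0.20 (95% interval -0.97 to -0.14; adjusted p = 0.391), and it was -0.50 without KO-injury replicate 5 and -0.47 without replicate 1. It was not called, and no member and no other probe passed in this comparison by limma (0.00% of 26063), nor did other settings call more than 3 probes, none of them a member. In it an unadjusted p under 0.05 was found at 10.4% of all probes and at 1 of the 18 member probes, that of Myd88. The uninjured genotypes differed at Myd88 by -0.21 ± 0.14 (95% interval -0.51 to 0.08; adjusted p = 1.00), with KO-control below WT-control on all 5 slides.

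The 5 tested probes of other genes whose levels over the 20 arrays were most like Myd88 were those of C1ra, Ppt1, Brip1os, Lcn2 and Sdc3, of 25842 compared. Pearson's r was 0.90, 0.90, 0.90, 0.89 and 0.88. Lcn2, a siderophore-binding protein of the acute phase, differed by -3.95 between KO-injury and WT-injury (adjusted p = 0.00381). Brip1os, an RNA antisense to Brip1, differed by -0.88 (adjusted p = 0.00674), while C1ra and Ppt1 were not called in any comparison. Sdc3 was called only with injury in WT, at 1.22 (adjusted p = 0.00565). All these points share arrays and slides, and the correlations are a description. The 5 probes were picked for likeness to Myd88 on these same arrays, so their differences are no separate support for that of Myd88. Among the other members, Irak3 probe 1 at 0.71 and Irak4 probe 1 at 0.71 lay nearest to Myd88, with probes of a gene numbered by rising coordinate.

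**Figure D2:**
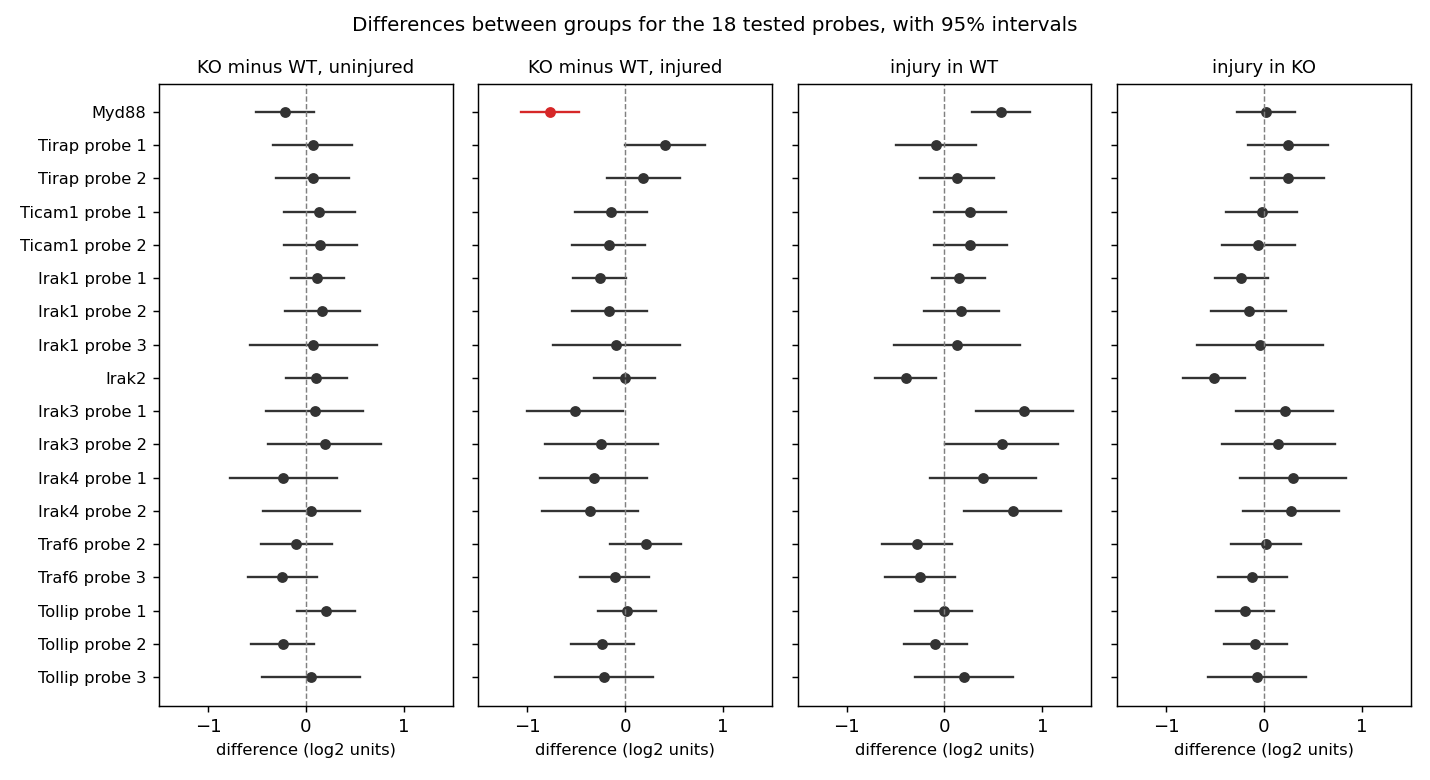
Differences in log2 units for the 18 tested probes in the 4 comparisons of groups, with 95% intervals from the limma fit and a dashed line at 0. The difference called, Myd88 in KO-injury against WT-injury at -0.77, is in red. In the uninjured panel every interval crosses 0, and the intervals of Myd88, Irak3 and Irak4 probe 2 lie above 0 for injury in WT.

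Tirap, the bridging adaptor, had 2 probes, 1 of them designed on a cDNA clone, and they moved together over the 20 arrays (r = 0.88). At Tirap probe 1, WT-injury replicates 1 to 5 read -0.02, 0.58, 0.34, 0.38 and 0.04, and KO-injury read 0.00, 0.76, 0.96, 0.68 and 0.94. Of these KO-injury arrays, 4 lay above all WT-injury arrays and replicate 1 lay among the lowest. The difference was 0.40 ± 0.20 (95% interval -0.005 to 0.81; adjusted p = 0.407), and at probe 2 it was 0.19 ± 0.18 (adjusted p = 0.708). Without KO-injury replicate 1 these were 0.57 (adjusted p = 0.237) and 0.36 (adjusted p = 0.435), and without replicate 5 they were 0.34 (adjusted p = 0.597) and 0.16 (adjusted p = 0.792).

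The adaptors of the route that does not need Myd88 gave no call. The 2 Ticam1 probes share 40 bases and count as 1 measurement (r = 0.97 over the arrays). At the first, the group means were -0.52 in WT-control, -0.38 in KO-control, -0.26 in WT-injury and -0.41 in KO-injury, and all 4 ranges overlapped. Its 95% intervals ran from -0.80 to 0.62 over all 5 comparisons. Ticam2, the partner of Ticam1 at Toll-like receptor 4, was well above background on 0 of 20 arrays at its single probe and was not tested.

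Irak4, the kinase that begins the Myddosome, had 2 tested probes. At Irak4 probe 2, WT-control replicates 1 to 5 read -1.95, -2.18, -1.53, -2.08 and -2.43, and WT-injury read -1.53, -1.15, -1.30, -1.12 and -1.57. Replicates 2, 3 and 4 of WT-injury lay above every control array, and replicates 1 and 5 just under the highest one. The difference was 0.70 ± 0.24 (95% interval 0.20 to 1.19; adjusted p = 0.0598), positive on all 5 slides, and at probe 1 it was 0.39 ± 0.26 (adjusted p = 0.360).

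KO-injury replicates 1 to 5 read -2.15, -1.06, -1.47, -1.27 and -2.53 at Irak4 probe 2. Replicates 2, 3 and 4 lay within the range of WT-injury or just above it. Replicates 1 and 5 lay within the range of WT-control or below it. At Scgb3a2 and Saa3 these were the KO-injury arrays nearest to the controls. Injury in KO gave 0.28 ± 0.24 (adjusted p = 0.556) with all arrays, 0.49 (adjusted p = 0.139) without replicate 5 and 0.39 (adjusted p = 0.386) without replicate 1. On the first scan day alone, injury gave 0.73 in wild-type and 0.68 in KO mice, and on the second 0.64 and -0.32.

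Irak3, the pseudokinase that restrains the Myddosome, likewise had KO-injury replicates 1 and 5 below replicates 2, 3 and 4. At Irak3 probe 1, WT-control replicates 1 to 5 read -2.16, -1.52, -1.87, -1.55 and -2.03, and WT-injury read -0.91, -1.13, -1.24, -1.13 and -0.64. KO-control read -1.56, -1.55, -1.72, -1.73 and -2.13, and KO-injury read -2.16, -0.99, -1.64, -0.78 and -2.06. The 2 wild-type groups did not overlap, whereas KO-injury spanned from the lowest control value to the range of WT-injury, with replicates 1 and 5 at the bottom.

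For injury in WT, Irak3 probe 1 differed by 0.82 ± 0.24 (95% interval 0.32 to 1.31; adjusted p = 0.0277), short of the threshold. Irak3 probe 2 differed by 0.58 ± 0.28 (adjusted p = 0.183). Both were positive on all 5 slides. The third Irak3 probe was well above background on 0 of 5 WT-control, 1 of 5 KO-control, 5 of 5 WT-injury and 2 of 5 KO-injury arrays. It was therefore not tested, and its WT-injury mean of -4.19 was at least 1.55-fold higher than in WT-control, where each control array was set to its own value or to the dimmest probe detected on it, whichever was higher.

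Between KO-injury and WT-injury, Irak3 probe 1 differed by -0.51 ± 0.24 (95% interval -1.01 to -0.02; adjusted p = 0.376). This was -0.38 without KO-injury replicate 5 and -0.35 without replicate 1. Within scan days the difference was 0.03 on the first and -1.33 on the second. The difference between the genotypes at this probe was thus carried by the slides of replicates 1 and 5. Injury in KO gave 0.21 ± 0.24 at probe 1 (adjusted p = 0.666) and 0.15 ± 0.28 at probe 2 (adjusted p = 0.814). Without replicate 1 these were 0.37 and 0.42, and without replicate 5 they were 0.35 and 0.23, so that 1 array moved them by over 1.5 times while none passed the test.

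**Figure D3:**
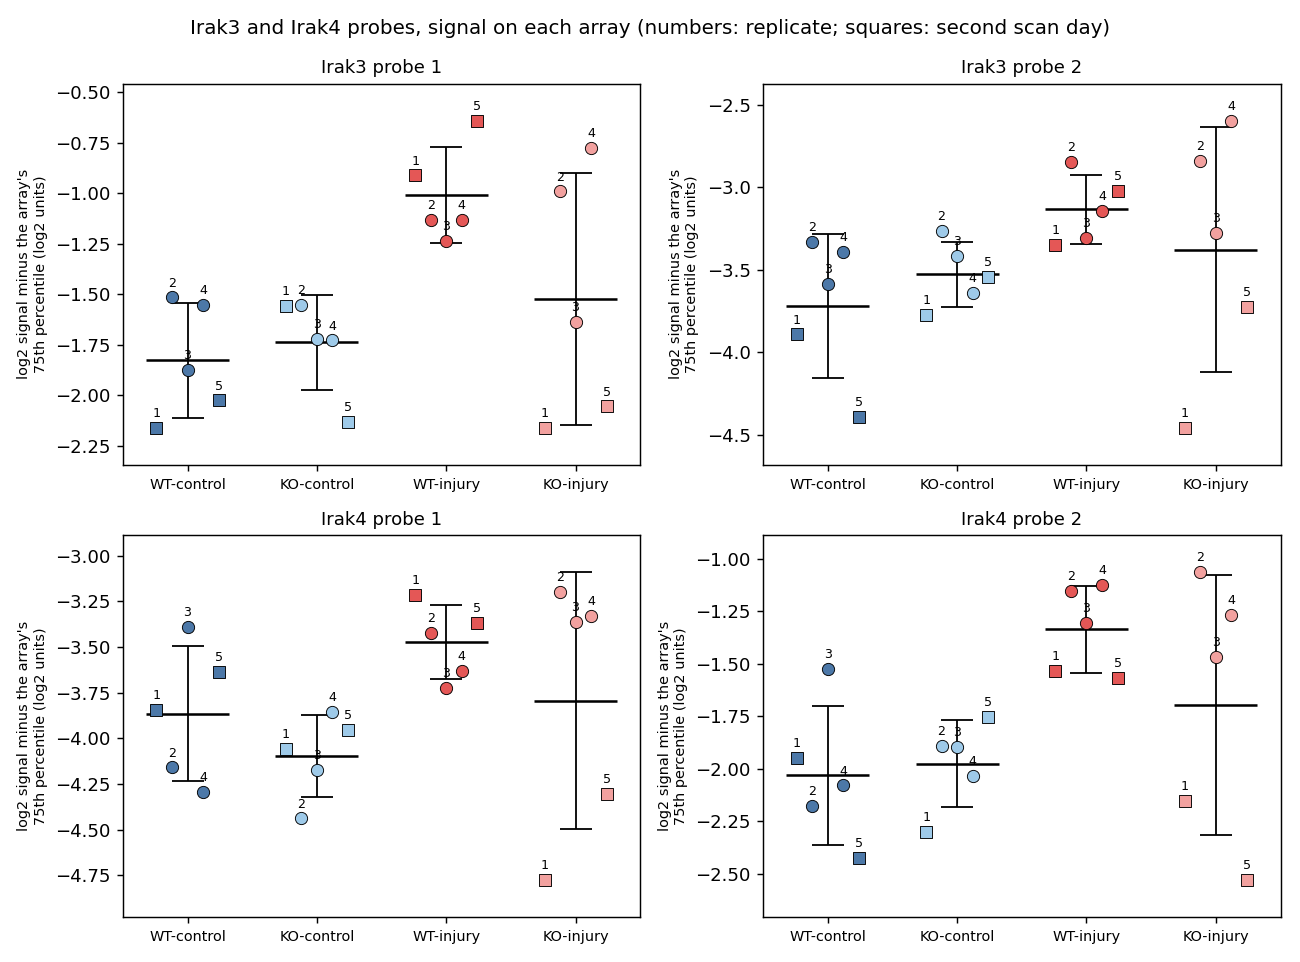
Signal of the 2 tested Irak3 probes and the 2 Irak4 probes on each array by group, as log2 signal minus the array's 75th percentile, with replicate numbers, squares for the second scan day, and the mean and SD of 5 arrays. At all 4 probes KO-injury replicates 1 and 5 lie below replicates 2, 3 and 4, which all reach at least the lowest WT-injury value except replicate 3 at Irak3 probe 1.

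Irak3 is known best from monocytes and macrophages, and the myeloid marker list is given beside these results. Of 11 myeloid genes, 6 were called higher with injury in WT, where 5.26% of all probes were called, and 0 in KO, where 0.376% were. The means of those not called in KO still differed, with Cd68 at -0.61 in KO-control and 0.78 in KO-injury and Itgam at -2.91 and -1.21. The log2 of their summed signal was 8.25 to 9.08 in WT-control, 8.12 to 8.91 in KO-control, 8.53 to 9.45 in WT-injury and 8.14 to 8.82 in KO-injury. This sum is carried by Lyz2, lysozyme, whose means were 8.54, 8.58, 8.48 and 8.35 in WT-control, KO-control, WT-injury and KO-injury, and it hides the other genes, such as Cd68 at -0.94 in WT-control and 2.33 in WT-injury. All 11 were tested, and Csf3r, a neutrophil receptor, was well above background on 0 of 5 KO-control arrays, 2 of 5 WT-control arrays, 3 of 5 KO-injury arrays and 5 of 5 WT-injury arrays. The part of these cells in the Myd88, Irak3 and Irak4 values was not tested.

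Irak2, a kinase of the later Myddosome signal, was lower after injury at its 1 probe without passing the threshold. WT-control replicates 1 to 5 read 1.27, 0.82, 1.01, 0.89 and 0.74, and WT-injury read 0.42, 0.87, 0.27, 0.52 and 0.67. KO-control read 0.70, 1.18, 1.37, 1.06 and 0.96, and KO-injury read 0.36, 0.54, 0.48, 0.60 and 0.76. WT-injury replicate 2 reached into the WT-control range, and KO-injury replicate 5 lay above KO-control replicate 1. Injury gave -0.40 ± 0.15 in WT (95% interval -0.71 to -0.08; adjusted p = 0.0904) and -0.51 ± 0.15 in KO (95% interval -0.82 to -0.20; adjusted p = 0.0673).

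The KO difference at Irak2 was negative on all 5 slides and the WT difference on 4. Without KO-injury replicate 5 the KO difference was -0.56 (adjusted p = 0.0268), and without replicate 1 it was -0.46 (adjusted p = 0.115). The injury differences of the 2 genotypes were apart by -0.11 ± 0.21 (95% interval -0.55 to 0.33), and by -0.16 and -0.07 without KO-injury replicates 5 and 1. The injured genotypes differed by -0.01 ± 0.15 (95% interval -0.32 to 0.31), and by -0.06 and 0.04 without these arrays.

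**Figure D4:**
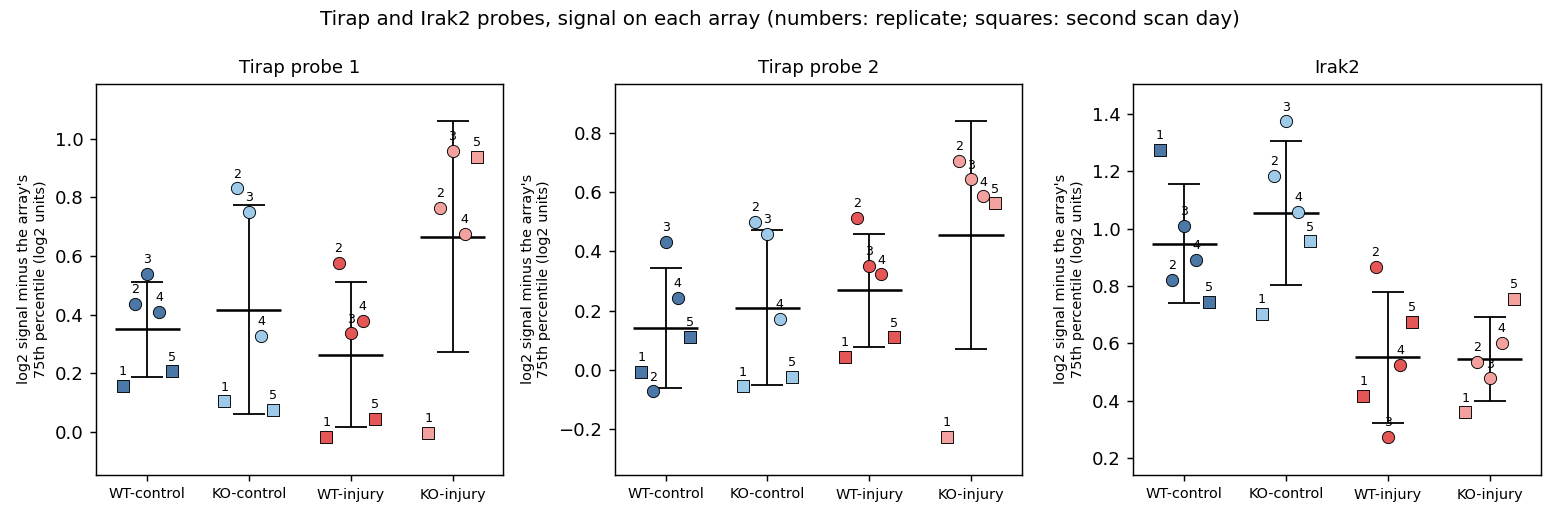
Signal of the 2 Tirap probes and the Irak2 probe on each array by group, as log2 signal minus the array's 75th percentile, with replicate numbers, squares for the second scan day, and the mean and SD of 5 arrays. Irak2 means are 0.95 in WT-control and 0.55 in WT-injury, and 1.05 in KO-control and 0.55 in KO-injury, with overlapping ranges, and KO-injury replicate 1 is the lowest of all 20 arrays at Tirap probe 2.

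Irak1, the kinase that passes the signal to Traf6, had 3 tested probes, of which 2 separated the scan days in every group. At Irak1 probe 3, the replicates 1 and 5 read -0.67 and -0.42 in WT-control, -0.73 and -0.54 in KO-control, -0.34 and -0.31 in WT-injury, and -0.99 and -0.51 in KO-injury. Replicates 2, 3 and 4 read higher than these in all 4 groups, from -0.24 to 0.48 over all groups. Second-day arrays lay lower by 0.56 to 1.12 in the group means, and probe 2, which tracked probe 3 (r = 0.95), also separated the scan days in all 4 groups.

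Irak1 probe 1 read between 2.28 and 2.96 and separated the scan days in 0 of 4 groups, and its correlation with probe 3 was 0.38. It gave -0.26 ± 0.13 between KO-injury and WT-injury (95% interval -0.53 to 0.01; adjusted p = 0.422), negative on all 5 slides. No Irak1 probe was called. The wide error of probe 3, with an SE of 0.31, was the largest among the 18 probes.

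**Figure D5:**
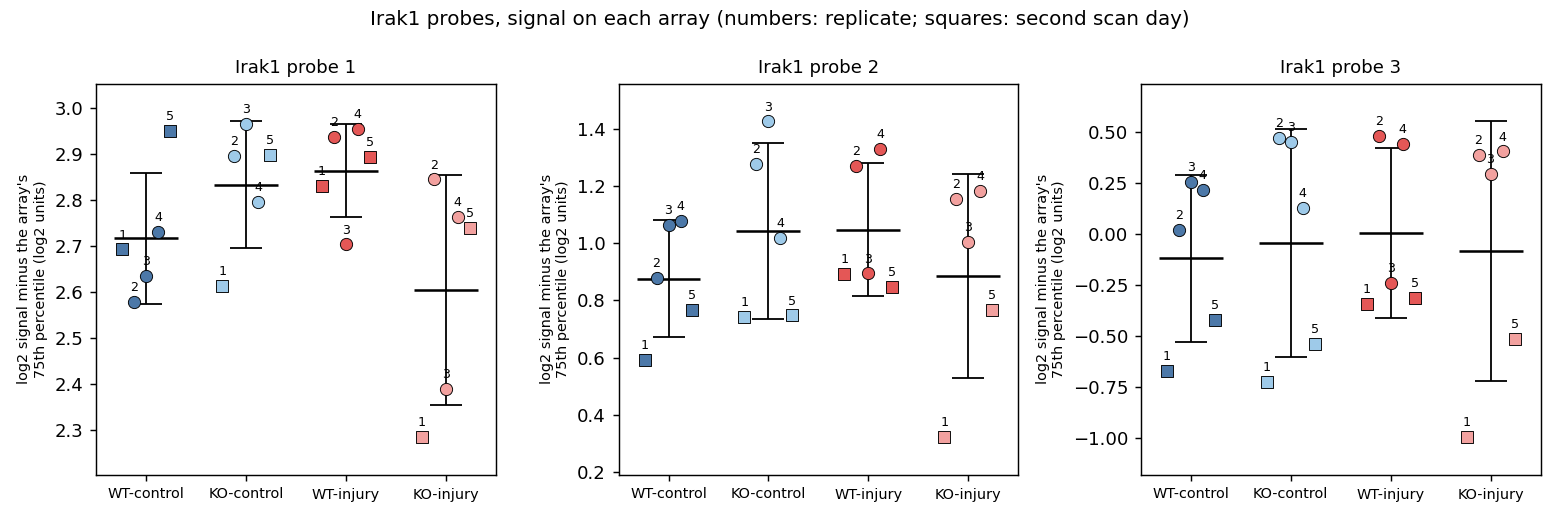
Signal of the 3 Irak1 probes on each array by group, as log2 signal minus the array's 75th percentile, with replicate numbers, squares for the second scan day, and the mean and SD of 5 arrays. The squares lie below the circles in every group at probes 2 and 3 and are mixed with them at probe 1.

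Traf6, the ligase on which the Myddosome signal converges, had 3 probes, and the probe at the lowest coordinate was well above background on 0 of 20 arrays. At Traf6 probe 2, designed on the RefSeq transcript, 19 arrays read between -2.09 and -1.54 and WT-control replicate 3 read -0.94. The injury difference in WT was -0.28 ± 0.17 (95% interval -0.64 to 0.08; adjusted p = 0.318) and in KO 0.02 ± 0.17 (95% interval -0.34 to 0.39; adjusted p = 0.956). The same array was the highest at probe 3. Without it the WT difference at probe 2 was -0.09 (adjusted p = 0.698), so that this 1 array carried most of it. At probe 3 the groups overlapped in every comparison made, and none was called.

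Tollip, which binds Irak1 and interleukin-1 receptor complexes, had 3 tested probes that did not follow one another. Their pairwise r over the 20 arrays was 0.03, -0.14 and 0.24, so no single Tollip level can be given. Probe 1 read 1.97 to 2.58 over all arrays, and KO-control lay above WT-control on all 5 slides with a difference of 0.20 ± 0.14 (95% interval -0.09 to 0.50; adjusted p = 1.00). Probe 2 went the other way, with KO-control below on all 5 slides by -0.24 ± 0.15 (95% interval -0.56 to 0.08; adjusted p = 1.00).

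Counted over the members, uninjured KO and WT tracheas differed at 0 of 18 probes, where 0.384% of all probes were called. At an unadjusted p under 0.05 the count was again 0 of 18, against 5.59% of all probes, and no member had groups that did not overlap, against 2.51%. The member differences ran from -0.24 to 0.20, and their median size was 0.13 against 0.15 over all probes. Their 95% intervals reached no further than -0.77 and 0.77, or 0.27 to 0.65 to either side of the difference.

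With injury in WT, 0 of 18 member probes were called, where 5.26% of all probes were. An unadjusted p under 0.05 was found at 5 of 18 (Myd88, Irak2, both tested Irak3 probes and Irak4 probe 2), or 27.8% against 26.4% of all probes, and groups that did not overlap at 2 of 18 against 12.6%. The median size of a member difference was 0.26 against 0.28 over all probes. The count of 1372 called probes fell to between 665 and 884 when WT-control replicate 1, 2 or 4 or WT-injury replicate 1, 2 or 5 was left out. The members thus moved about as often as the rest of the array, and these counts do not set them apart from it.

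With injury in KO, 0 of 18 were called against 0.376% of all probes, 1 of 18 (Irak2) had an unadjusted p under 0.05 against 19.5%, and 0 of 18 had groups that did not overlap against 3.45%. The median size was 0.15 against 0.25. The count over all probes rested on single arrays: 98 probes were called with all arrays, 1075 without KO-injury replicate 5, and 6 to 57 without any other array of the 2 KO groups, with 0 member probes called each time. For KO-injury against WT-injury, an unadjusted p under 0.05 was found at 2 of 18, Myd88 and Irak3 probe 1, against 12.5% of all probes. In that comparison 14 of the 18 differences were below 0, with a median of -0.17 against -0.03 over all probes. Both Ticam1 probes, which count as 1 measurement, are among the 14, and the scan days differed. Irak3 probes 1 and 2 and Irak4 probe 1 gave 0.03, 0.20 and 0.29 on the first day and -1.33, -0.91 and -1.25 on the second. Others, such as Myd88 at -0.48 and -1.19, were below 0 on both days.

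The wider pathway was read through 30 partner genes with 50 probes, of which 28 genes with 44 probes were tested. They covered the TAK1 and IKK kinases, ubiquitin enzymes, the interferon route and feedback inhibitors of NF-κB. Of the 28 genes, 1 was called with injury in WT, through 1 of the 44 probes, where 5.26% of all probes were called. In the 4 other comparisons 0 were called, where 0.384% of all probes were called between uninjured genotypes, 0.380% between injured ones, 0.376% with injury in KO and 0.00% for the difference in response.

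That gene was Ikbkg, the regulatory subunit NEMO of the IKK complex. At 1 of its 3 tested probes, WT-control replicates 1 to 5 read 0.09, -0.33, -0.53, -0.13 and -0.18, and WT-injury read -1.28, -1.61, -1.24, -1.22 and -1.24. The groups did not overlap, and this Ikbkg probe fell with injury in WT by a log2 difference of -1.10 ± 0.21 (95% interval -1.54 to -0.66; adjusted p = 0.00239). The other tested Ikbkg probes gave -0.57 (adjusted p = 0.22) and 0.00 (adjusted p = 0.99), so the probes disagree. At the called probe KO-injury replicates 1 and 5 read -0.45 and -0.31, near the controls, and replicates 2 and 4 read -1.64 and -1.45, with replicate 3 between these pairs.

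Feedback genes of NF-κB gave no call. Nfkbia, the inhibitor IκBα, differed between KO-injury and WT-injury by -0.57 (adjusted p = 0.24), and Tnfaip3, the deubiquitinase A20, by -0.48 (adjusted p = 0.44). For injury in WT they gave 0.10 (adjusted p = 0.80) and -0.30 (adjusted p = 0.48). Tnip1 and Nfkbiz of the list are given too, chosen after their values were seen. Tnip1, a partner of A20, gave 0.54 with injury in WT (adjusted p = 0.0111) and 0.50 between the uninjured genotypes (adjusted p = 0.137), in both cases with groups that did not overlap. Nfkbiz, the atypical inhibitor IκBζ, gave 0.91 with injury in KO (adjusted p = 0.0583) and -0.80 between the uninjured genotypes (adjusted p = 0.357). Map3k7, the kinase TAK1 downstream of Traf6, gave 0.04 with injury in WT and 0.04 between KO-injury and WT-injury. It gave 0.33 with injury in KO (adjusted p = 0.311) and -0.25 between the uninjured genotypes, neither called. Over the 44 partner probes, an unadjusted p under 0.05 was found at 11 with injury in WT (25.0%, against 26.4% of all probes) and at 10 with injury in KO (22.7% against 19.5%). It was found at 5 between uninjured genotypes (11.4% against 5.59%), at 3 between injured ones (6.82% against 12.5%) and at 7 for the difference in response (15.9% against 10.4%).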

How the data were processed

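The 20 one-colour Agilent whole mouse genome arrays were deposited as scanner output of Agilent Feature Extraction 9.5.1.1. The authors deposited an intensity per spot, background-subtracted and detrended but not scaled between arrays. The label texts and the study's methods differ on RNA input and on age range, and the labels were used. Control spots were left out, outlier spots (1960 values) were dropped, spots of a probe were averaged as log2 intensity, and each array's 75th percentile was subtracted. Probes well above background on at least 10 of 20 arrays were fitted with limma 3.58.1 in R 4.3.3, in 1 model of 4 groups with 5 contrasts and Benjamini-Hochberg adjustment within each contrast. The fit was tested on simulated data. The slide (replicate number) shared by 1 array of each group was an alternative block: uninjured WT and KO arrays of 1 slide deviated together (r of 0.252 to 0.476). All 10 genes and every probe of theirs are described, and the partner genes named are those called in any contrast plus Nfkbia, Tnfaip3 and Map3k7. Tnip1 and Nfkbiz were named besides these, after their values were seen. The members and lists were chosen with earlier results of these data known. Of the cell type lists fixed, myeloid and epithelial genes had calls (6 of 11 higher with injury in WT; 1 of 10 lower with injury in each genotype), and cartilage, smooth muscle, skeletal muscle, adipocyte, thyroid, and T and B cell genes had 0. Spots not above background carry a surrogate value, which shrinks differences of dim probes. The number of arrays limits the precision.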

Additional observations from a re-analysis of the deposited data

Results flagged for a closer look

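In 3 of the 72 combinations of probe and group tested, 1 array stood far from the other 4 of its group, about what chance gives at 1 in 20. At Tirap probe 2, KO-injury replicate 1 read -0.23 and the other KO-injury arrays 0.56 to 0.71. At Traf6 probe 2, WT-control replicate 3 read -0.94 and the next highest array -1.75. At Traf6 probe 3, the same array read -2.78 and the others -3.36 to -3.24.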

How the results depend on the processing

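Of 2181 member differences recomputed under other settings, 91 changed sign, none of them called in either setting, and no called difference reversed. The Myd88 call between injured genotypes (1 member probe) held with the filter on all arrays, scan day as a block, outlier spots kept and the deposited table. It was lost, leaving 0 member probes, with normexp background (-0.74), quantile normalization (-0.70), the array median (-0.76), no filter (-0.77), the replicate block (-0.77), array weights (-0.62), only the 2 groups (-0.77) and the methods' one-way test after adjustment (-0.77). Over leave-one-out fits it was -0.84 to -0.68, with 0 to 1 member probes called. Myd88 with injury in WT passed with the array median (0.64), scan day (0.58), array weights (0.59) and the methods' test before adjustment (0.58), giving 1, 1, 1 and 3 member probes; leave-one-out gave 0.54 to 0.65 and 0 to 1 probes. Myd88 with injury in KO was -0.04 to 0.11 over leave-one-out fits. The methods' test before adjustment also called 1 member probe with injury in KO. Partner genes called with injury in WT were 3 with the replicate block, scan day or array weights, 2 with only the 2 groups, and 3 and 4 by the methods' test after and before adjustment. With injury in KO they were 2 with array weights and 2 by the methods' test before adjustment, which also called 2 between uninjured and 1 between injured genotypes. The replicate block changed no other call among members. The causes were not tested.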
